A study of Mus musculus with 6 samples.

Results

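The cytosolic ribosomal protein genes code for the proteins of the ribosome that translates nuclear mRNAs. They were taken by name from the deposited expression table: gene symbols of Rpl or Rps followed by a number and at most a short suffix, plus Rplp0, Rplp1, Rplp2 and Rpsa, without pseudogenes named -ps and without the Rps6k kinases. This gave 83 genes of 13743 rows, 50 of the large (60S) subunit and 33 of the small (40S) subunit. The study transfected mouse embryonic stem cells (ESCs) of a C57/129 background and genotype Dgcr8-/-. Loss of Dgcr8, a partner of Drosha in microRNA maturation, was shared by all groups, so none of them could make canonical microRNAs. The 6 libraries came from cells transfected with miR-294 (2 libraries), with siMbd2, a small interfering RNA against Mbd2 (2 libraries), and with CTR, the control (2 libraries), each 48 h after transfection. The dose given for mimics and siRNAs was 50 nM, and the deposited table calls the CTR cells mock. Whether the libraries of a group came from separate cultures is not stated, so p-values measure only the spread between these libraries, which may be technical.

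Each ribosome holds 1 copy of most of its proteins, so cells make them in near-equal amounts and their mRNAs are among the most abundant of a dividing cell. Normal embryonic stem cells divide quickly, and ribosome production is a large part of their growth. The libraries do not show how quickly the Dgcr8-/- cells divided. The mRNAs of ribosomal proteins typically begin with a C followed by a run of C and T (the 5′ terminal oligopyrimidine, or TOP, motif), through which mTOR signalling and the RNA-binding protein Larp1 control their translation, and MYC is a known activator of genes for ribosome production. miR-294 is made from the miR-290 cluster, which supplies most microRNAs of normal mouse ESCs. The Mbd2 protein binds methylated CpG sites and works with the NuRD complex in gene repression.

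The mature miR-294 is shown with the relatives that share its seed in the RefSeq table (GRCm38.p6), because the seed decides which mRNAs it can pair with. Capitals mark the seed, bases 2 to 8.
mmu-miR-294-3p: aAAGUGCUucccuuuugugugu
mmu-miR-291a-3p: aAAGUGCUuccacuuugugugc
mmu-miR-295-3p: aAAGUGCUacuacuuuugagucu
mmu-miR-302b-3p: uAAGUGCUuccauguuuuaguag
mmu-miR-302d-3p: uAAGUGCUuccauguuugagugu

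Few ribosomal protein mRNAs carry a match to this seed in their longest annotated 3′ UTR (GENCODE vM21, GRCm38). Which form the cells made was not examined, so the expressed mRNA may lack a site given here. A match was the 8-base AGCACTTA or the 7-base AGCACTT or GCACTTA, on the mRNA strand, the shorter ones being parts of the longer. Such a match stood in 7 of the 82 genes found in the annotation (8.54%), against 20.93% of 10803 tested genes, and the median 3′ UTR length was 175 bases for ribosomal protein genes and 1141 bases for the tested genes. Rpl11 was the only one with an 8-base match. The sites of Rpl11, Rpl37 and Rpsa are shown with the match in capitals and 10 bases on either side, because 2 of these genes rose with miR-294 and the third did not pass the test.
Rpl11, bases 98 to 105 of the 3′ UTR: tgggaccacaAGCACTTAaagaaagcct
Rpl37, bases 433 to 439: ctttattcccAGCACTTggtgacaggt
Rpsa, bases 557 to 563: gcctgtgaatAGCACTTgggctgggag
Rpsa, bases 691 to 697: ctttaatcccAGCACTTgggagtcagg
Further members with a 7-base match included Rpl23, Rps15a and Rps20.

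Many of the genes share a run of C and T, as in the TOP motif, at the start of the transcript. RefSeq start windows (GRCm38.p6) were given for 62 of the 83 genes, and the other 21 are not described here. Among the 60 bases from 20 before to 40 after the annotated start, an unbroken run of at least 8 C or T stood in 42 of 62 genes (67.74%), against 23.73% of 8656 tested genes, and one of at least 10 in 50.0%, against 11.99%. The annotated start itself was a C followed by at least 4 of C or T in 13 of 62 (20.97%), against 3.06%. Genes with several annotated starts counted once if any window matched. Each line below shows 30 bases, 15 on either side of the annotated start, on the coding strand, with the longest run of C and T in capitals. Rpl7a, Rpl35, Rpl38 and Rplp2 are shown as genes that rose by more than 1.5-fold with miR-294 and have such a run. Rps6 is a 40S gene, Rpl7l1 rose without such a run, and Rpl22l1 has a run but did not rise. Several other genes above 1.5-fold had shorter runs in these 30 bases. The longest was 5 in Rplp0, Rpl27 and Rpl10l, 4 in Rpl37a and 3 in Rpl11.
Rpl7a, chr2:26910792-26910821, plus strand: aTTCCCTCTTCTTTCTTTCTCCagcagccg
Rpl35, chr2:39005117-39005146, minus strand: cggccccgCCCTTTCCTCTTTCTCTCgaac
Rpl38, chr11:114668565-114668594, plus strand: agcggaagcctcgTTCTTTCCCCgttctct
Rplp2, chr7:141447636-141447665, plus strand: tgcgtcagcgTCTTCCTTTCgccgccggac
Rps6, chr4:86857353-86857382, minus strand: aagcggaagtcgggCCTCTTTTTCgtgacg
Rpl7l1, chr17:46782642-46782671, minus strand: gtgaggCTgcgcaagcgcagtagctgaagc
Rpl22l1, chr3:28805493-28805522, plus strand: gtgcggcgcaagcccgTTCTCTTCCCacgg

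Values are RPKM, reads scaled to transcript length and library size, as the authors deposited them. They hold no read counts, so the depth of the libraries is unknown, and fold changes were tested on log2(RPKM + 1). A gene is said to have risen or fallen where limma, fitted to all 6 libraries and the 11428 rows with a mean of at least 1 RPKM, gave a Benjamini-Hochberg adjusted p under 0.05 over all of those rows. All 83 ribosomal protein genes were in the test. With 2 libraries a group, an exact permutation test cannot give a p under 0.333, so each call rests on the spread that limma shares across genes. Many of these genes have near-identical processed pseudogenes or paralogs, so single values are uncertain to the extent that the authors' counting split reads between copies. The 11 rows named -ps summed to 0.0380 to 0.0539% of the ribosomal protein sum in the 6 libraries. Pseudogenes under other symbols were not summed, so this share does not show how reads were split between copies.

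The labels were checked on Mbd2 and Dgcr8. Mbd2 had 11.3 and 12.3 RPKM with miR-294, 7.33 and 6.34 RPKM with siMbd2, and 26.8 and 27.9 RPKM in CTR. Dgcr8 mRNA had 6.66 and 7.14 RPKM with miR-294, 7.24 and 7.34 RPKM with siMbd2, and 7.49 and 8.44 RPKM in CTR, and gene-level values do not show whether that transcript is intact. All 7 ESC markers were in the table, with summed levels of 2496 and 2499 RPKM with miR-294, 2335 and 2320 RPKM with siMbd2, and 2230 and 2187 RPKM in CTR. Single ESC markers were mixed. With miR-294, 3 rose and 2 fell, with a median log2 change of -0.12, and with siMbd2 2 rose and 2 fell. Of 7 fibroblast markers 2 were in the table, none at 0 in every library, and they summed to 3.89 and 3.56 RPKM with miR-294, 1.15 and 1.32 RPKM with siMbd2, and 1.64 and 1.53 RPKM in CTR. The 1 of them that could be tested was higher with miR-294, with a log2 change of 0.83, and lower with siMbd2, at -0.30. The 5 primitive endoderm markers summed to 2.87 and 2.63 RPKM with miR-294, 2.91 and 2.5 RPKM with siMbd2, and 3.83 and 3.11 RPKM in CTR. The 1 tested was lower with miR-294, with a log2 change of -0.95, and with siMbd2, at -0.35. With quantile normalization the siMbd2 changes of the tested fibroblast and endoderm markers were not called. These sums moved with the treatments, and their part in the results was not tested. The CTR libraries differed from each other more than the libraries of the other groups did: CTR replicate 1 was above replicate 2 in 70 of the 83 genes, by a median of 0.11 on the log2 scale, against 0.07 over all genes tested. The same median was 0.02 with miR-294 and 0.04 with siMbd2. The counts of calls over all 83 genes are therefore given without each CTR library too.

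Ribosomal protein mRNAs took up more of the measured mRNA with miR-294. Their share of the summed RPKM was 23.1 and 23.0% with miR-294, 20.8 and 20.4% with siMbd2, and 19.8 and 18.8% in CTR. The groups did not overlap. In bulk RNA of this kind, a change in the make-up of the cells and a change in mRNA per cell cannot be told apart. The median gene of the 83 stood at 1219 and 1219 RPKM with miR-294, 999 and 981 RPKM with siMbd2, and 935 and 892 RPKM in CTR. The sum of the 60S genes over that of the 40S genes was 1.14 in both miR-294 libraries, 1.07 and 1.09 with siMbd2, and 1.07 and 1.08 in CTR, so the large subunit gained more with miR-294. The share of mRNAs encoded in mitochondria, which could move the others by taking up the sum, was 2.52 and 2.68% with miR-294, 3.27 and 3.38% with siMbd2, and 3.03 and 4.13% in CTR, and its part in the result was not tested beyond leaving these genes out of the sum.

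**Figure D1:**
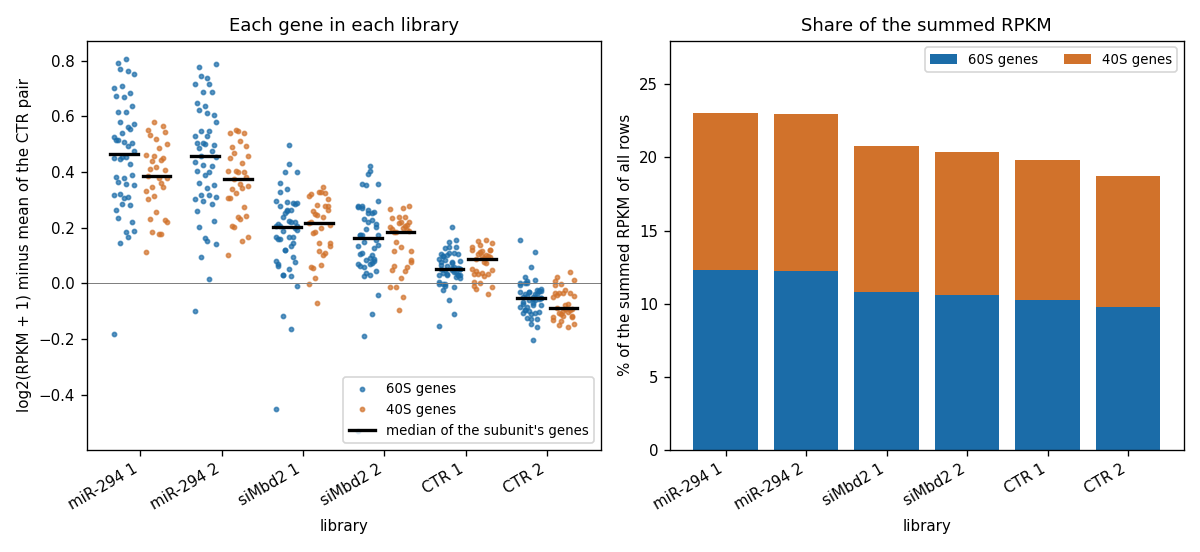
Ribosomal protein genes in each library. Left, log2(RPKM + 1) of each of the 83 genes minus its mean in the CTR pair, with 60S genes in blue, 40S genes in orange and a black bar at each subunit's median; right, stacked bars of the percentage of the summed RPKM taken by 60S and 40S genes. Both miR-294 libraries lie highest, at 23.1 and 23.0% of the sum on the deposited scale, and CTR replicates 1 and 2 lie apart at 19.8 and 18.8%.

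With miR-294, nearly the whole set rose together by a modest step. Of the 83 genes 76 rose and 0 fell against CTR on the deposited scale, while quantile normalization gave 31 higher and 11 lower. Over all genes tested 27.7% rose and 36.8% fell. At an unadjusted p under 0.05 (limma), 77 of the 83 passed. The median change of the 83 was 0.42 on the log2 scale, or 1.34-fold, against -0.08 over all genes tested. The change was positive in 82 of 83, and both miR-294 libraries lay above both CTR libraries in 79 of 83, as they did in 35% of all genes tested. In the 60S subunit 47 of 50 genes rose, with a median log2 change of 0.46. In the 40S subunit 29 of 33 rose, with a median of 0.38. The 13 genes above 1.5-fold were all of the 60S subunit. Without CTR replicate 1 the counts were 80 higher and 1 lower (Rpl22l1), and without CTR replicate 2 they were 74 and 0.

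The scaling matters here because the members sit at the top of the expression range. Of the 100 rows with the highest mean RPKM 63 were ribosomal protein genes, and of the highest 200 they were 78. Quantile normalization gives every library the same values at each rank, so it holds the level of these ranks fixed by construction. Under it the median log2 change of the 83 genes was 0.09 with miR-294, against 0.02 over all genes tested, and of the 76 genes that rose on the deposited scale 55 had a positive change and 31 still rose. Of the genes named in the text, Rpl3, Rpl5, Rpl23, Rpl23a, Rps3a1, Rps4l, Rps15, Rps15a, Rps20, Rps23, Rps27, Rps27a, Rps29 and Rpsa had a positive change with miR-294 on the deposited scale and a negative one under it. Of these, Rpl3, Rpl5, Rpl23a, Rps3a1, Rps15, Rps23, Rps29 and Rpsa were called lower under it, as was Rpl22l1, whose change was negative on both scales. Setting the RPKM sums of the libraries equal moved the median of all genes tested to -0.21 and left 64 ribosomal protein genes higher and 1 lower, with a median of 0.27. Relative to the median of all genes, the members stood 0.50 higher on the deposited scale, 0.48 with equal sums, 0.07 with quantile normalization and 0.51 after median-of-ratios scaling. The split of calls over all genes was 3162 higher and 4204 lower on the deposited scale, 2240 and 5647 with equal sums, 3648 and 3469 with quantile normalization, and 3748 and 3704 after median-of-ratios scaling.

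**Figure D2:**
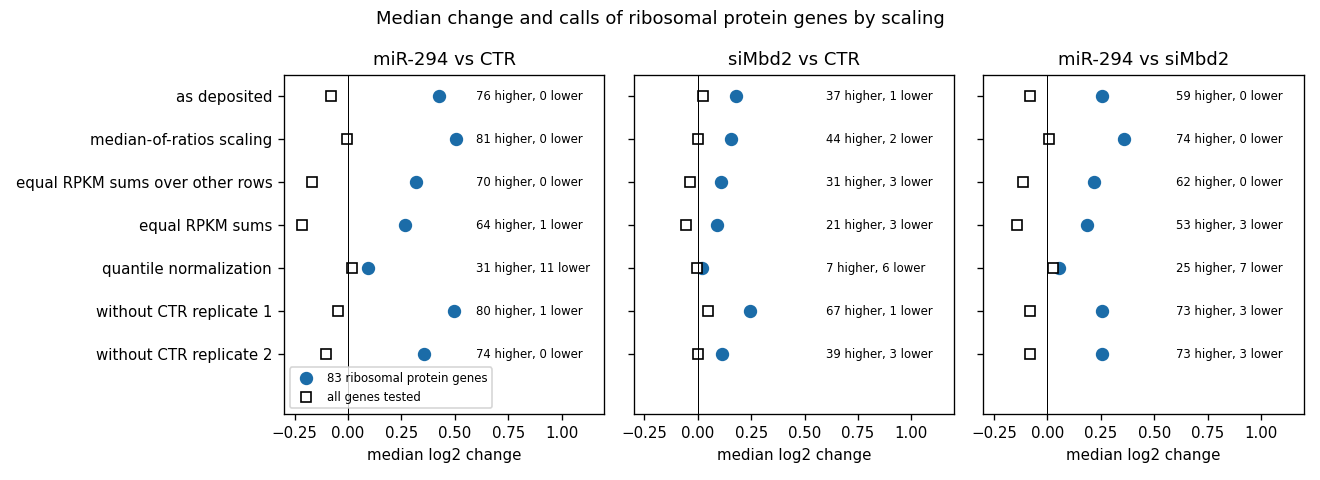
Median log2 change of the 83 ribosomal protein genes (filled circles) and of all genes tested (open squares) under 5 scalings and without either CTR library, for the 3 comparisons, with the number of ribosomal protein genes called higher and lower beside each row. The circles lie right of the squares in every row, and come closest to them with quantile normalization, where 31 genes were higher and 11 lower with miR-294.

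The mRNAs for the proteins of the ribosomal stalk were among those that rose by more than 1.5-fold with miR-294. Rplp0, Rplp1 and Rplp2 form the flexible P stalk of the 60S subunit, which recruits the translation factors that hydrolyse GTP. Rplp1, the most abundant of the 83 mRNAs by RPKM, had 4179 and 3991 RPKM with miR-294, 3376 and 3161 RPKM with siMbd2, and 2755 and 2077 RPKM in CTR. The groups did not overlap, although the CTR libraries lay far apart. It rose by 0.77 ± 0.12 (log2, standard error, adjusted p = 5.61e-04, limma) with miR-294 and by 0.45 ± 0.12 with siMbd2 (adjusted p = 0.0207, limma).

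Rplp0, the base of the stalk, had 1175 and 1136 RPKM with miR-294, 830 and 823 RPKM with siMbd2, and 745 and 642 RPKM in CTR. It rose by 0.74 ± 0.07 with miR-294 (adjusted p = 5.49e-05, limma) and by 0.26 with siMbd2 (adjusted p = 0.0298, limma). Rplp0 is often used as a reference gene in quantitative PCR, and here its miR-294 level was 0.48 (log2) above its siMbd2 level (adjusted p = 7.73e-04, limma). Rplp2, the partner of Rplp1, had 1213 and 1219 RPKM with miR-294, 993 and 954 RPKM with siMbd2, and 846 and 740 RPKM in CTR. It rose by 0.62 with miR-294 and by 0.30 with siMbd2.

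Other 60S genes that rose by more than 1.5-fold belong to several places on the subunit. Rpl35, which lies near the exit of the peptide tunnel, had 763 and 783 RPKM with miR-294, 554 and 556 RPKM with siMbd2, and 460 and 447 RPKM in CTR, and the libraries of each group stood close together. Its log2 change was 0.77 ± 0.05 with miR-294 (adjusted p = 8.78e-06, limma) and 0.29 ± 0.05 with siMbd2 (adjusted p = 0.00433, limma). Rpl7a had 1687 and 1655 RPKM with miR-294, 1181 and 1193 RPKM with siMbd2, and 1114 and 1003 RPKM in CTR. It rose by 0.66 with miR-294, while its change with siMbd2, 0.17, did not pass the test (adjusted p = 0.0797, limma).

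Rpl38, known in the mouse for its part in translating Hox mRNAs, was chosen here for its start sequence after its values were seen. It had 1638 and 1612 RPKM with miR-294, 1192 and 1146 RPKM with siMbd2, and 1024 and 980 RPKM in CTR. It rose by 0.70 with miR-294 and by 0.22 with siMbd2 (adjusted p = 2.02e-05 and 0.0193, limma).

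Rpl11 and Rpl5, which bind the 5S ribosomal RNA and, outside the ribosome, the p53 regulator Mdm2, rose by unequal amounts. Rpl11 had 1017 and 995 RPKM with miR-294, 797 and 758 RPKM with siMbd2, and 680 and 630 RPKM in CTR. Its change with miR-294 was 0.62 (adjusted p = 5.02e-05, limma). This is the gene with the 8-base seed match shown above. Rpl5 had 877 and 882 RPKM with miR-294, 720 and 744 RPKM with siMbd2, and 702 and 714 RPKM in CTR. It rose by 0.31 with miR-294 (adjusted p = 9.81e-04, limma), and its siMbd2 libraries lay just above the CTR pair, with a change of 0.05 (adjusted p = 0.512, limma).

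Genes of the 40S subunit rose by less, none of them by more than 1.5-fold. Rps6, the substrate of the S6 kinases, had 1164 and 1148 RPKM with miR-294, 964 and 954 RPKM with siMbd2, and 933 and 814 RPKM in CTR. It rose by 0.41 with miR-294 (adjusted p = 0.00115, limma), and its siMbd2 change of 0.14 did not pass the test (adjusted p = 0.168, limma). Rps27a, made as a fusion with ubiquitin, had 1461 and 1466 RPKM with miR-294, 1233 and 1226 RPKM with siMbd2, and 1190 and 1180 RPKM in CTR. It rose by 0.30 with miR-294, and changed by 0.05 with siMbd2 (adjusted p = 0.477, limma). Rps12 and Rps26, with Rplp1 and Rpl13a the most abundant of the set, rose by 0.43 and 0.25 with miR-294.

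The genes that did not pass the test with miR-294 included Rpl22l1, Rpl3l, Rpsa, Rps23, Rps4l and, named after its values were seen, Rps15. Rpsa, a 40S protein also known as the laminin receptor, had 863 and 858 RPKM with miR-294, 929 and 920 RPKM with siMbd2, and 875 and 730 RPKM in CTR. The miR-294 libraries lay between the CTR libraries, and the log2 change was 0.11 (adjusted p = 0.286, limma). Its longest annotated 3′ UTR holds 7-base matches to the miR-294 seed, as do those of Rpl37, which rose by 0.51, and Rps20, which rose by 0.37. Rps23, a protein of the decoding centre, changed by 0.16 (adjusted p = 0.0579, limma), and Rpl23a, a docking site at the tunnel exit, rose by 0.16 (adjusted p = 0.0438, limma).

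**Figure D3:**
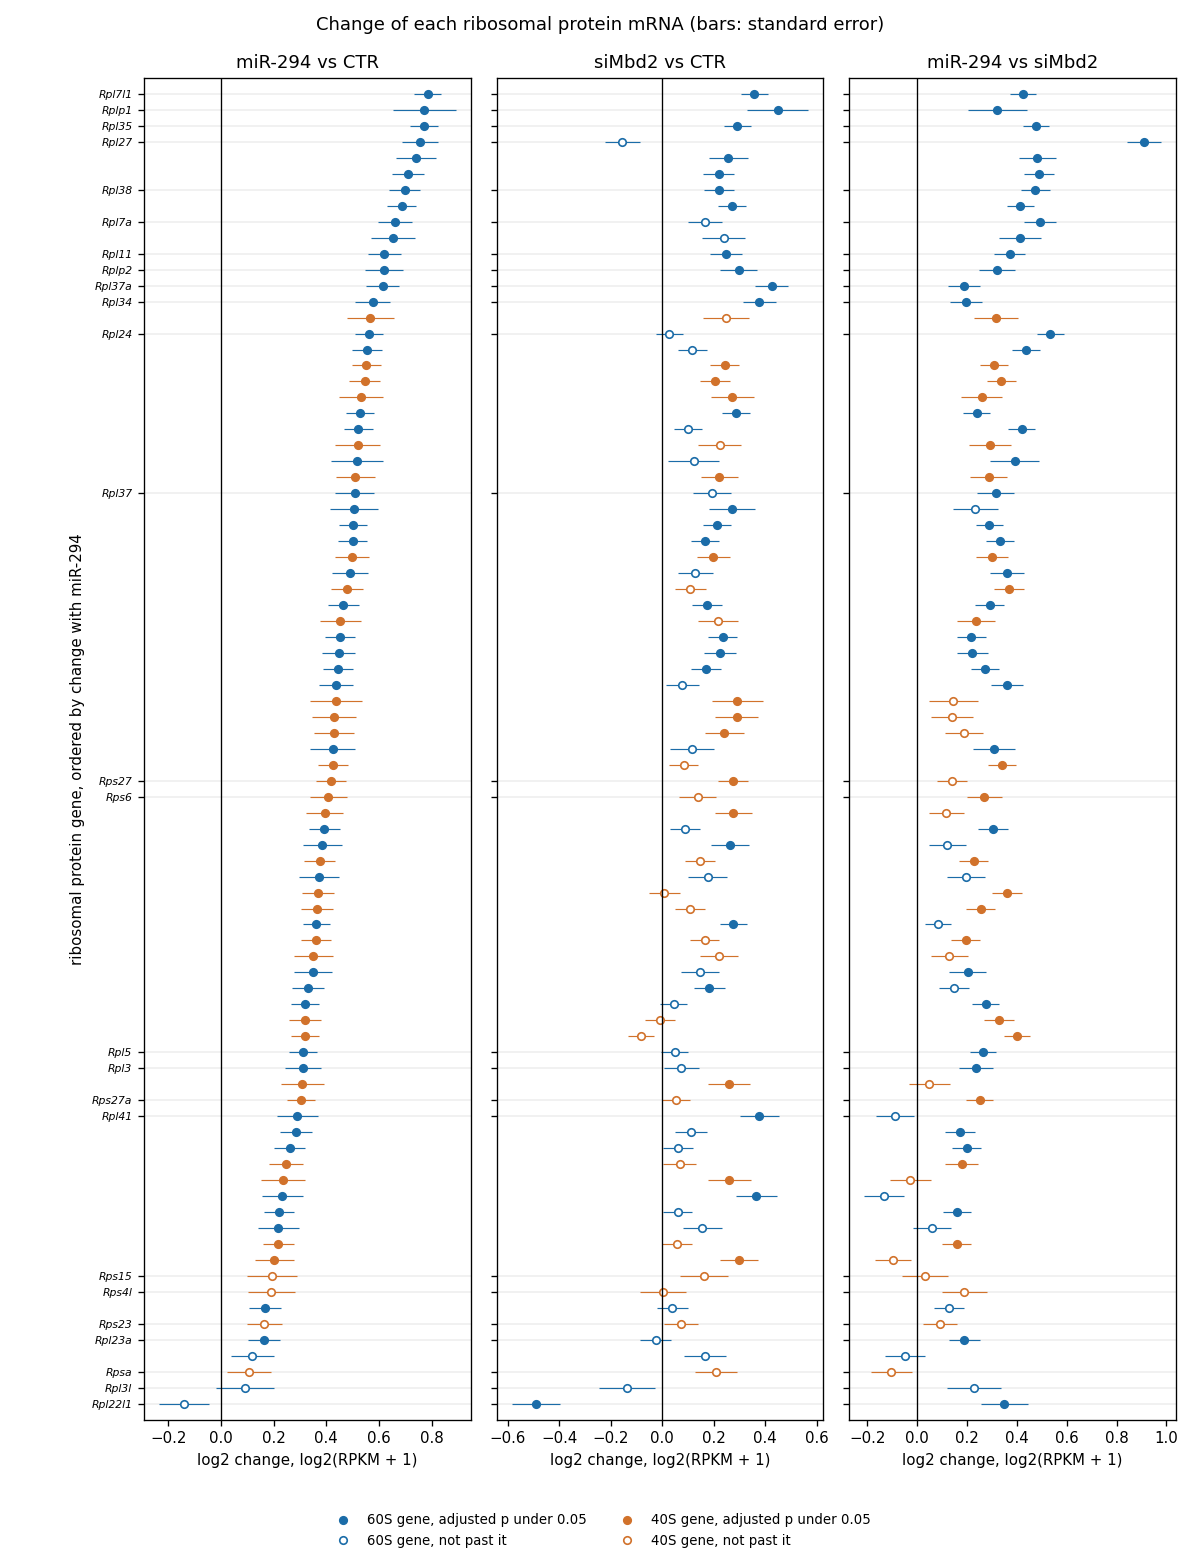
Log2 change on the log2(RPKM + 1) scale (horizontal axis) of each of the 83 ribosomal protein genes, ordered by the change with miR-294 and with some of those named in the text labelled, for the 3 comparisons. Circles are blue for 60S and orange for 40S genes, filled where the adjusted p was under 0.05, with bars of 1 standard error. On this scale 76, 37 and 59 filled circles lie right of 0 from left to right, and with quantile normalization 31, 7 and 25 genes were called higher; Rpl22l1 lies left of 0 in the first and second panels and Rpl27 stands apart in the third.

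With siMbd2 the set shifted in the same direction by a smaller step, and the count of calls depended strongly on the libraries. Of the 83 genes 37 rose and 1, Rpl22l1, fell against CTR on the deposited scale, while quantile normalization gave 7 higher and 6 lower. Over all genes tested 19.5% rose and 14.9% fell. The median change was 0.18 on the log2 scale, or 1.13-fold, against 0.02 over all genes tested, and no gene passed 1.5-fold. Both siMbd2 libraries lay above both CTR libraries in 66 of 83, as in 37% of all genes tested. In the 60S subunit 24 of 50 genes rose, with a median of 0.17, and in the 40S subunit 13 of 33, with a median of 0.21. Without CTR replicate 1 the count was 67 higher and 1 lower, and without CTR replicate 2 it was 39 and 3. Without either siMbd2 library it was 4, without either miR-294 library it was 16, and a fit to the siMbd2 and CTR libraries alone also gave 16. By subunit, 41 of the 60S and 26 of the 40S genes rose without CTR replicate 1, while 12 and 4 rose without either miR-294 library, 4 and 0 without siMbd2 replicate 1, and 3 and 1 without siMbd2 replicate 2. All 37 genes kept a positive change in each fit without a library.

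The genes that rose most with siMbd2 were Rplp1, Rpl37a, Rpl34, Rpl41, Rpl39l and Rpl7l1. Rpl37a, a small 60S protein, had 1085 and 1084 RPKM with miR-294, 955 and 948 RPKM with siMbd2, and 745 and 674 RPKM in CTR. It rose by 0.43 ± 0.06 with siMbd2 (adjusted p = 0.00197, limma) and by 0.61 ± 0.06 with miR-294 (adjusted p = 5.90e-05, limma). Rpl34 had 922 and 927 RPKM with miR-294, 818 and 795 RPKM with siMbd2, and 655 and 587 RPKM in CTR, and rose by 0.38 with siMbd2. Rpl41, the shortest ribosomal protein, had 2451 and 2469 RPKM with miR-294, 2657 and 2570 RPKM with siMbd2, and 2158 and 1875 RPKM in CTR. Its siMbd2 libraries were the highest of the 6. Its log2 change was 0.38 with siMbd2 (adjusted p = 0.00697, limma) and 0.29 with miR-294 (adjusted p = 0.00954, limma).

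At the other end, Rps3a1 of the 40S subunit and Rpl23a of the 60S subunit had siMbd2 changes of -0.08 and -0.03, neither past the test on the deposited scale. Rps3a1 had 826 and 831 RPKM with miR-294, 633 and 622 RPKM with siMbd2, and 665 and 663 RPKM in CTR. Its siMbd2 libraries thus lay just below the CTR pair while its miR-294 libraries lay well above on the deposited scale, by 0.32 against CTR (adjusted p = 7.58e-04, limma). With quantile normalization the miR-294 change of Rps3a1 was called in the other direction, at -0.15 (adjusted p = 0.0136, limma). The siMbd2 change of Rps3a1 was called lower with quantile normalization, equal RPKM sums and equal sums over the other rows. After median-of-ratios scaling it was not called.

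The direct comparison of miR-294 with siMbd2 tests whether the shifts differed. Of the 83 genes 59 were higher and 0 lower with miR-294 on the deposited scale, while quantile normalization gave 25 higher and 7 lower. At an unadjusted p under 0.05 (limma), 64 passed. Over all genes tested 21.9% were higher and 35.5% lower. The median difference was 0.26 on the log2 scale, against -0.08 over all genes tested, and both miR-294 libraries lay above both siMbd2 libraries in 74 of 83, as in 34.5% of all genes tested. In the 60S subunit 39 of 50 genes were higher, and in the 40S subunit 20 of 33, with 21 to 45 and 8 to 28 when each library was left out in turn. Without either CTR library the count was 73 higher and 3 lower (Rpl41, Rps15a and Rpsa), without miR-294 replicate 1 or 2 it was 33 or 35, and without siMbd2 replicate 1 or 2 it was 40 or 30. The means were ordered miR-294, siMbd2, CTR from high to low in 70 of 83 genes (84.3%), against 22.7% of all genes tested, and every library kept that order in 58 (69.9%), against 13.5%.

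Rpl27 stood apart from the other members in the direct comparison. It had 856 and 842 RPKM with miR-294, 463 and 440 RPKM with siMbd2, and 533 and 473 RPKM in CTR. The miR-294 libraries were far above the other 4, and the siMbd2 libraries were the lowest. The difference between miR-294 and siMbd2 was 0.91 ± 0.07 (log2, adjusted p = 2.06e-05, limma), the only one of the 83 above 1.5-fold. Against CTR, Rpl27 rose by 0.76 with miR-294 (adjusted p = 3.11e-05, limma) and changed by -0.15 with siMbd2 on the deposited scale (adjusted p = 0.112, limma). Under each of the other scalings Rpl27 was called lower with siMbd2. These were median-of-ratios scaling, quantile normalization, equal RPKM sums and equal sums over the other rows.

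Rpl24, mutated in the Belly spot and tail mouse, was also much higher with miR-294 than with siMbd2, and its siMbd2 libraries lay just above the CTR pair. It had 1094 and 1069 RPKM with miR-294, 747 and 745 RPKM with siMbd2, and 728 and 736 RPKM in CTR. Its miR-294 level was 0.54 above its siMbd2 level (adjusted p = 7.55e-05, limma) and changed by 0.03 with siMbd2 against CTR (adjusted p = 0.720, limma). For Rpl7a the same difference was 0.49. The lowest in this comparison included Rpl39l, Rpsa, Rps15a, Rpl41 and Rps29, with differences of -0.13 to -0.03 and none past the test.

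Some paralog forms of ribosomal proteins are known from particular tissues, and 7 paralog forms were in the set. With siMbd2 against CTR, Rpl22l1 moved against its parent Rpl22. Rpl22l1 (chromosome 3) had 219 and 231 RPKM with miR-294, 181 and 171 RPKM with siMbd2, and 223 and 276 RPKM in CTR. The siMbd2 libraries were the lowest of the 6 and the CTR libraries were spread widely. With siMbd2 its log2 change was -0.49 ± 0.09 (adjusted p = 0.00573, limma), and its miR-294 change of -0.14 did not pass the test (adjusted p = 0.221, limma). Between the treatments it was 0.35 higher with miR-294 (adjusted p = 0.0125, limma), and Rpl22 was 0.24 higher (adjusted p = 0.00509, limma).

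Rpl22 (chromosome 4) had 1347 and 1351 RPKM with miR-294, 1150 and 1136 RPKM with siMbd2, and 935 and 937 RPKM in CTR, with replicates almost equal in each group. It rose by 0.53 ± 0.05 with miR-294 (adjusted p = 5.52e-05, limma) and by 0.29 ± 0.05 with siMbd2 (adjusted p = 0.00494, limma). In the mouse, loss of the Rpl22 protein is known to raise Rpl22l1, which can take its place in the ribosome. The negative siMbd2 change of Rpl22l1 passed the test in each scaling and each fit without a library except the fit without siMbd2 replicate 2, where it was -0.45 (adjusted p = 0.0562, limma).

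Rpl7l1, related to Rpl7, was the member with the highest change with miR-294. It had 98.6 and 97.7 RPKM with miR-294, 72.9 and 72.7 RPKM with siMbd2, and 56.5 and 56.7 RPKM in CTR, so the groups were far apart relative to their spread. It rose by 0.78 ± 0.05 with miR-294 (adjusted p = 7.40e-06, limma) and by 0.36 ± 0.05 with siMbd2 (adjusted p = 0.00176, limma). Its parent Rpl7, at 1140 and 1148 RPKM with miR-294, 987 and 981 RPKM with siMbd2, and 864 and 809 RPKM in CTR, rose by 0.45 and 0.24.

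Rpl10l, which replaces the X-linked Rpl10 in male meiosis of the mouse, had 59.5 and 60.1 RPKM with miR-294, 40.7 and 44.0 RPKM with siMbd2, and 36.3 and 36.1 RPKM in CTR. It rose by 0.71 with miR-294 and by 0.22 with siMbd2. Its coding sequence resembles that of Rpl10, so reads of Rpl10 may be counted in it. Rpl10, needed late in 60S maturation, had 1482 and 1462 RPKM with miR-294, 1232 and 1174 RPKM with siMbd2, and 1088 and 1046 RPKM in CTR. It rose by 0.46 with miR-294 and by 0.17 with siMbd2 (adjusted p = 1.74e-04 and 0.0493, limma). With quantile normalization its siMbd2 change was -0.0145 (adjusted p = 0.833, limma).

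Rps27l, a p53 target, and Rps27 both rose with each treatment. Rps27l had 427 and 419 RPKM with miR-294, 350 and 334 RPKM with siMbd2, and 281 and 296 RPKM in CTR, a log2 change of 0.55 with miR-294 and 0.24 with siMbd2. Rps27 changed by 0.42 and 0.28. Rpl39l, known from the testis, had 19.8 and 17.8 RPKM with miR-294, 20.3 and 21.1 RPKM with siMbd2, and 15.2 and 16.5 RPKM in CTR. It rose by 0.23 with miR-294 (adjusted p = 0.0288, limma) and by 0.37 with siMbd2 (adjusted p = 0.00902, limma), and its parent Rpl39 by 0.36 and 0.28.

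Rpl3l, known from heart and skeletal muscle, was near the floor of the test in every library, at 1.63 and 1.37 RPKM with miR-294, 1.09 and 1.17 RPKM with siMbd2, and 1.17 and 1.53 RPKM in CTR. None of its changes passed the test. Its parent Rpl3 rose by 0.31 with miR-294 (adjusted p = 0.00359, limma) and changed by 0.08 with siMbd2 (adjusted p = 0.417, limma). Rps4l, which the annotation used here does not list, had 510 and 517 RPKM with miR-294, 456 and 445 RPKM with siMbd2, and 499 and 405 RPKM in CTR, with no call in any comparison, and its siMbd2 libraries lay between the CTR libraries. Rps4x, the X-linked 40S gene, rose by 0.36 with miR-294 and changed by 0.16 with siMbd2 (adjusted p = 0.0576, limma).

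**Figure D4:**
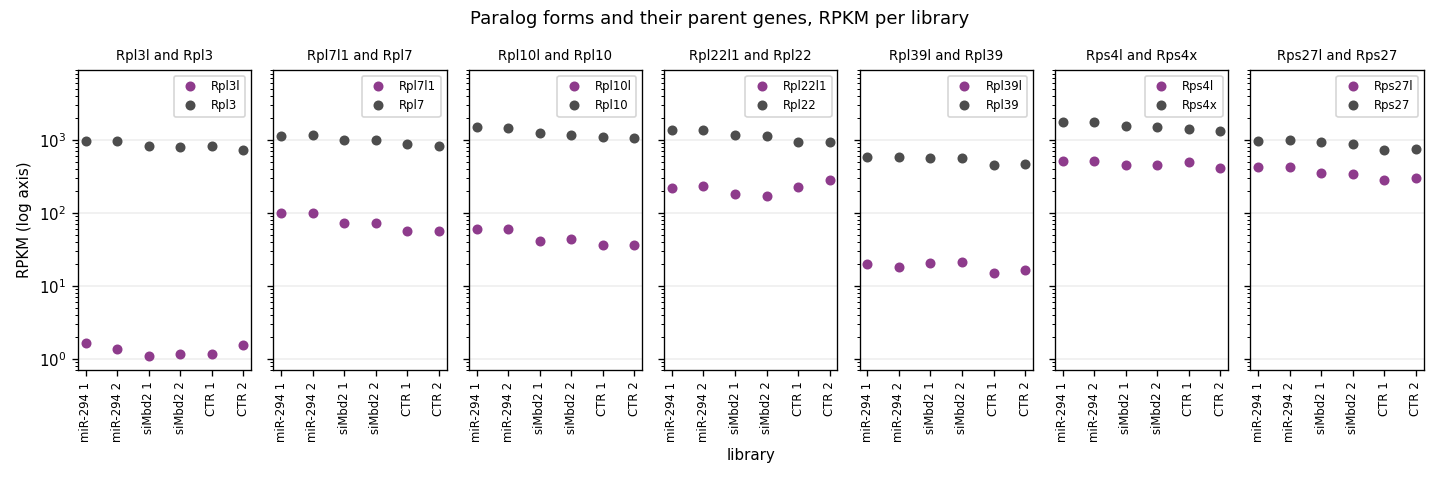
RPKM per library, on a log axis, of 7 paralog forms (purple) and their parent genes (grey) of the ribosomal protein set. Rpl22l1 is lowest in the siMbd2 libraries, at 181 and 171 RPKM, where Rpl22 lies above its CTR values, while Rpl7l1 and Rpl7 both stand highest with miR-294 and lowest in CTR.

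Several features unrelated to the choice by name set the members apart from other genes or from each other. Genes for snoRNAs, small RNAs that guide modification of ribosomal RNA, lay inside 29 of the 82 annotated members on the same strand (35.37%), against 1.72% of 10866 tested genes. Of the 29 hosts, 27 rose with miR-294 and 6 with siMbd2, with medians of 0.35 and 0.11 on the log2 scale. The 6 of 29 is near the 19.5% of all genes tested that rose with siMbd2. Of the 53 other members, 49 rose with miR-294 and 31 with siMbd2, with medians of 0.45 and 0.22. No test was made of this split, and the calls with siMbd2 are those that depend on the libraries as given above.

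Members with and without a long C and T run had like counts. Of the 42 genes with a run of at least 8, 38 rose with miR-294 and 20 with siMbd2, with medians of 0.42 and 0.18. Of the 20 with a shorter run, 19 rose with miR-294 and 10 with siMbd2, with medians of 0.46 and 0.21. Motifs were sought in the whole window, from 250 bases before to 50 after the start. CCGGAAG, the core bound by ETS factors such as GABP, was found on either strand in 41.94% of the 62 members and 21.37% of tested genes, and AAGATGG, part of the YY1 motif, in 16.13 and 8.70%. TCTTTC on the coding strand, which can overlap a C and T run, stood in 29.03% of members and 10.85% of tested genes. The E-box CACGTG, which reads the same on both strands and is bound by MYC, stood in 9.68% of members and 12.22% of tested genes, and TATAAA on the coding strand in 9.68 and 4.93%.

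The change of a member was little related to its level. Over the 83 genes Spearman's rho between the log2 change and the mean RPKM was -0.10 for miR-294 against CTR, 0.12 for siMbd2 against CTR and -0.27 for miR-294 against siMbd2. These genes share libraries and are not independent replicates. By RPKM, which is scaled to transcript length, the median 40S gene stood at 1384 RPKM and the median 60S gene at 937 RPKM over the 6 libraries.

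Genes that make ribosomes were described beside the ribosomal proteins. The 4 ribosomal components outside the name rule all rose with miR-294, by a median of 0.44 (1 higher and 1 lower with quantile normalization), and 2 of them with siMbd2 (4 without CTR replicate 1, and 1 without either miR-294 or either siMbd2 library). Rpl36al, a paralog of Rpl36a, had 425 and 423 RPKM with miR-294, 423 and 396 RPKM with siMbd2, and 257 and 270 RPKM in CTR, so the treatments were nearly level. Its log2 change was 0.68 with miR-294 and 0.63 with siMbd2 (adjusted p = 2.10e-05 and 3.45e-04, limma).

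The mRNAs of assembly factors had larger median changes with miR-294 than those of the proteins they assemble, a difference given here without a test. Of 34 factors of the 60S subunit or of both, 33 rose with miR-294, with a median of 0.70, and 20 rose and 2 fell with siMbd2, with a median of 0.22. Of 23 factors of the 40S subunit, 23 rose with miR-294, with a median of 0.69, and 13 with siMbd2, with a median of 0.30. With quantile normalization, 31 of the 34 and 23 of the 23 were called higher with miR-294, with medians of 0.53 and 0.65. Beside them, 31 of the 83 ribosomal protein genes were called higher, with a median of 0.09. This scaling holds the highest ranks, where the ribosomal protein genes sit, fixed by construction, so it cannot decide the difference. With siMbd2 the counts higher were 12 and 9 of the 34 without siMbd2 replicate 1 and 2, and 8 and 6 of the 23. Nip7, a late 60S assembly factor, had 27.9 and 27.2 RPKM with miR-294, 18.7 and 20.5 RPKM with siMbd2, and 11.8 and 10.2 RPKM in CTR. Heatr1, which acts in early 40S processing, had 41.1 and 40.9 RPKM with miR-294, 27.2 and 28.2 RPKM with siMbd2, and 18.7 and 19.1 RPKM in CTR. Both rose in each treatment. Of 14 genes of RNA polymerase I and its factors, which transcribe ribosomal RNA, 11 rose and 1 (Taf1b) fell with miR-294, and 5 rose with siMbd2 (8 rose and 2 fell without CTR replicate 1). Polr1b, a core subunit, had 56.4 and 56.6 RPKM with miR-294, 41.9 and 43.8 RPKM with siMbd2, and 32.1 and 30.7 RPKM in CTR.

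Other genes described with TOP mRNAs were mixed. Of 18, 14 rose and 1 fell with miR-294, with a median of 0.32 (7 higher and 4 lower with quantile normalization), and 4 rose and 1 fell with siMbd2, a share near the 19.5% of all genes tested that rose. Without CTR replicate 1 the siMbd2 counts were 9 and 4, and without either siMbd2 library 1 and 1. The gene that fell in both was Eif4a2, a paralog of the helicase Eif4a1. Npm1, a nucleolar chaperone, had 2612 and 2615 RPKM with miR-294, 1518 and 1576 RPKM with siMbd2, and 1411 and 1537 RPKM in CTR. It rose by 0.83 with miR-294 and changed by 0.07 with siMbd2 (adjusted p = 0.427, limma).

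Of 23 genes that control ribosomal protein synthesis, 10 rose and 2 (Larp4b and Pdcd4) fell with miR-294 (5 and 6 with equal RPKM sums), while 4 rose and 1 (Rheb) fell with siMbd2, no larger a share than the 19.5% of all genes tested that rose. Without miR-294 replicate 1 or 2 the miR-294 counts were 5 and 2 or 6 and 2, and without CTR replicate 1 or 2 they were 12 and 5 or 9 and 4. The siMbd2 counts were 7 and 2 without CTR replicate 1, 5 and 3 without CTR replicate 2, and 2 or 1 higher without siMbd2 replicate 1 or 2. Myc had 26.0 and 27.0 RPKM with miR-294, 5.71 and 6.91 RPKM with siMbd2, and 1.84 and 2.41 RPKM in CTR. The order of its group means was that of 84.3% of the ribosomal protein genes and of 22.7% of all genes tested. Whether Myc had a part in the changes of the ribosomal protein genes was not tested. Its log2 change was 3.14 with miR-294 and 1.23 with siMbd2 (adjusted p = 1.14e-06 and 3.95e-04, limma). Eif4ebp1, a translation inhibitor acting below mTOR, had 387 and 379 RPKM with miR-294, 282 and 267 RPKM with siMbd2, and 235 and 209 RPKM in CTR, and rose in both.

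The mitochondrial ribosome is a separate particle whose proteins are coded in the nucleus. Of its 77 genes 63 rose and 2 fell with miR-294, with a median of 0.41 (59 and 2 with quantile normalization), and 44 rose with siMbd2, with a median of 0.30 (28 without siMbd2 replicate 2). Between the treatments 35 were higher and 10 lower with miR-294 (22 or 23 higher without any 1 miR-294 or siMbd2 library), and the median difference was 0.12. Of 13 mitochondrially encoded genes 7 fell with miR-294, with a median of -0.45, and the median with siMbd2 was -0.04. These counts rested on the CTR libraries: without CTR replicate 1, 13 fell with miR-294 and 8 with siMbd2, and without CTR replicate 2, 1 rose and 6 fell with miR-294 and 7 rose with siMbd2. Without miR-294 replicate 1, 3 fell with miR-294.

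**Figure D5:**
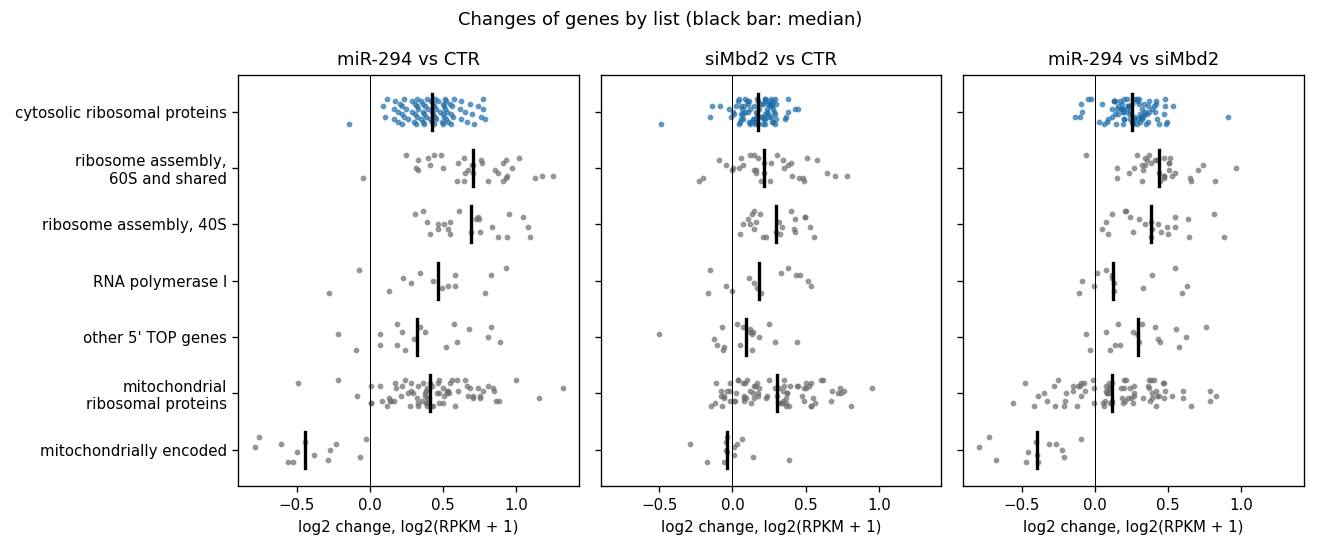
Log2 change on the log2(RPKM + 1) scale of each gene (dots) and median (black bar) for the cytosolic ribosomal proteins (blue) and 6 other lists (grey), in the 3 comparisons. On the deposited scale the ribosomal proteins have medians of 0.42, 0.18 and 0.26 from left to right (0.09, 0.02 and 0.06 with quantile normalization), and the mitochondrially encoded genes lie at -0.45, -0.04 and -0.40.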

How the data were processed

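Messenger RNA was sequenced in 6 libraries of Dgcr8-/- mouse ESCs, 2 each for miR-294, siMbd2 and CTR, grouped by the treatment given in the labels. The authors deposited 1 RPKM value per gene and library, per the file headers, and a column with the ratio of each treatment's mean over the control; recomputed ratios differed from these by at most 0.02 for all 83 genes. Per the submitters' processing notes the tools included CASAVA 1.7, STAR 2.3.0 and Cufflinks with the mm10 build; the step each did and the gene annotation are not stated in these sources. Per the labels each sample is the average of a pair of lanes. No read counts were used, so depth, counting error and intervals are unknown.

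Values were analysed as log2(RPKM + 1) with limma 3.58.1 (R 4.3.3): 1 fit of 3 groups, intensity trend, rows with a mean of at least 1 RPKM (11428), 3 residual and 5.38 prior degrees of freedom, two-sided tests, Benjamini-Hochberg over all rows of a contrast, threshold 0.05. The procedure was tried on simulated data with independent noise for each gene and a small share of genes changed. That setting holds no shift shared across a library, so it cannot show how such a shift affects the calls. Sequence features used Python 3.11.15, numpy 2.4.6 and pandas 2.3.3 on GENCODE vM21 and RefSeq tables of GRCm38, the assembly of mm10; figures used matplotlib 3.10.9. Alternatives were other pseudocounts, filters and scalings, no trend, the 4 libraries of a contrast, a replicate block and leaving out each library. Genes named are the 6 highest and 6 lowest per comparison, the 4 most and 4 least abundant, paralog forms with their parents, a set of 10 such as Rps6, and up to 4 of each list with the largest changes, with exceptions stated and a few genes not reported here; genes named beside a count of 5 or fewer were chosen after their values were seen. The members and the lists were chosen with earlier results of these data known. Comparisons against CTR share the CTR libraries.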

Additional observations from a re-analysis of the deposited data

How the results depend on the processing

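The counts of ribosomal protein genes depended most on the scaling and on the libraries; the RPKM values carry no depth. The cause was not tested except where the construction shows it (quantile normalization). Pseudocounts of 0.1 or 5 RPKM, no filter and a filter at a mean of 5 RPKM left each count and median within 1.5 times and moved no direction. Alternatives that needed protein sequences were not run.

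The median log2 change of the 83 genes with miR-294 against CTR was 0.50 with median-of-ratios scaling, 0.27 with equal RPKM sums, 0.32 with equal sums over the other rows and 0.092 with quantile normalization, with 31 genes higher and 11 lower in the last and 1 lower with equal sums. With siMbd2 against CTR, median-of-ratios scaling gave 2 genes lower, equal sums 21 higher and 3 lower (median 0.089), equal sums over the other rows 3 lower (median 0.11) and quantile normalization 7 higher and 6 lower (median 0.021). Without the intensity trend 23 were higher, and with the 4 libraries of the contrast 16. For miR-294 against siMbd2, median-of-ratios scaling gave a median of 0.36, equal sums 0.19 with 3 lower, quantile normalization 0.056 with 25 higher and 7 lower, and the 4 libraries 3 lower. The share of the summed RPKM without mitochondrially encoded genes was 23.6% with miR-294 and 21.3% with siMbd2, and without the 10 highest other rows it was 24.6% with miR-294, 22.3% with siMbd2 and 21.0% in CTR.

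Leaving out each library in turn gave 65 to 80 genes higher and 0 to 1 lower with miR-294 against CTR (median 0.36 to 0.49), 4 to 67 higher and 0 to 3 lower with siMbd2 against CTR (0.11 to 0.24), and 30 to 73 higher and 0 to 3 lower with miR-294 against siMbd2 (0.24 to 0.27). Deviations from the group means correlated at 0.12, 0.13 and 0.02 between the groups. With 2 libraries a group, these values cannot decide whether the replicate numbers pair the libraries. Replicate 1 was above replicate 2 in 58 of the 83 genes with miR-294, 67 with siMbd2 and 70 in CTR. With a replicate block the counts were 78 higher and 0 lower, 43 and 1, and 62 and 0 in the order of comparisons above.

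The direction of some named genes turned round. In miR-294 against CTR, quantile normalization gave -0.34 for Rpsa, -0.15 for Rpl23a, -0.17 for Rps23, -0.042 for Rps27, -0.13 for Rpl3, -0.078 for Rps4l, -0.15 for Rpl5, -0.15 for Rps3a1, -0.12 for Rps15a and Rps29, and -0.059 for Rps27a. Equal sums gave -0.0024 for Rpl3l and -0.052 for Rpsa. Without a library the change ran from -0.019 to 0.20 for Rpl3l, -0.30 to 0.014 for Rpl22l1 and -0.025 to 0.24 for Rpsa. In siMbd2 against CTR, median-of-ratios scaling gave -0.020 for Rps4l. Quantile normalization gave -0.015 for Rpl10, -0.094 for Rpl3, -0.13 for Rps4l, -0.15 for Rpl5, -0.0053 for Rps6, -0.060 for Rps23, -0.028 for Rpl7a, -0.15 for Rpl24 and -0.11 for Rps27a. Equal sums gave -0.013 for Rpl3, -0.085 for Rps4l, -0.039 for Rpl5, -0.016 for Rps23, -0.061 for Rpl24 and -0.035 for Rps27a. Equal sums over the other rows gave -0.066 for Rps4l, -0.020 for Rpl5, -0.041 for Rpl24 and -0.015 for Rps27a. Without a library the change ran from -0.077 to 0.026 for Rpl23a, -0.012 to 0.16 for Rpl3, -0.0015 to 0.15 for Rps23 and -0.15 to 0.15 for Rps4l. In miR-294 against siMbd2, median-of-ratios scaling gave 0.0050 for Rps15a, 0.015 for Rpl41 and 0.075 for Rps29. Quantile normalization gave 0.0052 for Rpl39l, -0.095 for Rps27, -0.11 for Rpl39, -0.033 for Rpl3, -0.0025 for Rpl7, -0.042 for Rpl23a, -0.11 for Rps23, -0.095 for Rpl34, -0.025 for Rpl37a and -0.0036 for Rpl5. Without a library the change ran from -0.067 to 0.013 for Rps29.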
